A study of Mus musculus with 50 samples.

Results

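The genes described here are 9 genes of histone H3 lysine 36 (H3K36) methylation and their overlapping neighbours, out of 37310 genes in each RNA count table: Nsd1, Whsc1 (now Nsd2), Whsc1l1 (now Nsd3), Setd2, Ash1l, Psip1 and Hdgf, with Whsc2, which lies opposite Whsc1, and Snapc3, which lies opposite Psip1. They were taken by name, not by how they moved, and all 9 are in the tables. The RNA came from J1 cells, embryonic stem (ES) cells of the mouse strain 129S4/SvJae, grown untreated on gelatin in serum medium with LIF, a cytokine that keeps ES cells undifferentiated. The groups were KO1 and KO2, the lines of genotype NSD1-/-, and wild type J1 cells, with 2 libraries in each of the 3 groups. How the lines were made, which bases they lack and whether each grew from 1 clone is not in the labels. Nor do the labels say whether libraries of the same group are from separate cultures, so p-values measure the spread between 2 libraries that may be technical repeats.

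Methyl groups on H3K36 are placed by SET-domain enzymes. NSD1, NSD2, NSD3 and ASH1L place the mono- and dimethyl forms, and SETD2, which travels with elongating RNA polymerase II, places the trimethyl form over gene bodies. PWWP domains read the mark: PSIP1 (LEDGF) and HDGF carry such a domain, and so do the NSD enzymes themselves. WHSC2 is the A subunit of the negative elongation factor NELF, which holds RNA polymerase II near promoters, and SNAPC3 is a subunit of SNAPc, the complex that starts transcription of small nuclear RNA genes.

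The counts at these genes have to be read with the strand in mind. The authors counted fragments with a strand setting of 1. Abundant genes then had few counts (Actb, 104 to 144 in a library; Rpl23a, a ribosomal protein gene, 29 to 46) and genes opposite abundant genes had many (Tlcd1, opposite Rpl23a, 11382 to 18509). The counts are therefore read as fragments from the strand opposite to the counted gene. On that reading the counts at Snapc3 are fragments of the Psip1 strand, those at Psip1 are of the Snapc3 strand, those at Whsc2 are of the Whsc1 strand, and those at Whsc1 are of the Whsc2 strand. Nsd1, Whsc1l1, Setd2, Ash1l and Hdgf have no annotated exon opposite them, and the tables do not tell whether their counts came from their own transcripts or from an unannotated transcript of the other strand. For this reason the Nsd1 counts do not check the knockout.

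The largest coding stretch shared by the exons of an overlapping pair lies in Psip1 exon 9 of 16, at mm9 chr4:83110829-83111054 on the minus strand, and is shown because fragments of the Psip1 strand from it would, on that reading, be counted at Snapc3. Its 226 bases are coding in 3 Psip1 transcripts and lie within a Snapc3 exon on the plus strand. The sequence, read from the mouse genome of the files' build, runs 5′ to 3′ on the Psip1 strand, with the exon in capitals and 10 intron bases on each side in lower case.
Psip1 exon: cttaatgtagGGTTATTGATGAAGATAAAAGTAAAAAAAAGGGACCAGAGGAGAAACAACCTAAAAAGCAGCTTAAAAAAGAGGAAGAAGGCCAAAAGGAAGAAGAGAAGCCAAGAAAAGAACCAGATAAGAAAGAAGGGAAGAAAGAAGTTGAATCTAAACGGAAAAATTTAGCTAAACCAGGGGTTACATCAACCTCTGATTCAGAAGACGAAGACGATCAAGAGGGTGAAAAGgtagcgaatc

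Both pairs overlap tail to tail. Whsc1 (ENSMUSG00000057406.8, chromosome 5, 34163374 to 34240624, plus strand) and Whsc2 (ENSMUSG00000029111.6, 34239585 to 34279062, minus strand) share 1040 exon bases, from 34239585 to 34240624. The shared bases are untranslated in both genes and make up 6.54% of the exon bases of Whsc1 and 21.1% of those of Whsc2. Psip1 (ENSMUSG00000028484.10, chromosome 4, 83101584 to 83132363, minus strand) and Snapc3 (ENSMUSG00000028483.7, 83063628 to 83113580, plus strand) overlap over 11997 bases, of which 483 are exon on both strands. Of these, 446 lie in Psip1 coding sequence and 257 in untranslated Snapc3 sequence, and they make up 9.5% of the Psip1 exon bases and 7.14% of the Snapc3 exon bases.

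**Figure D1:**
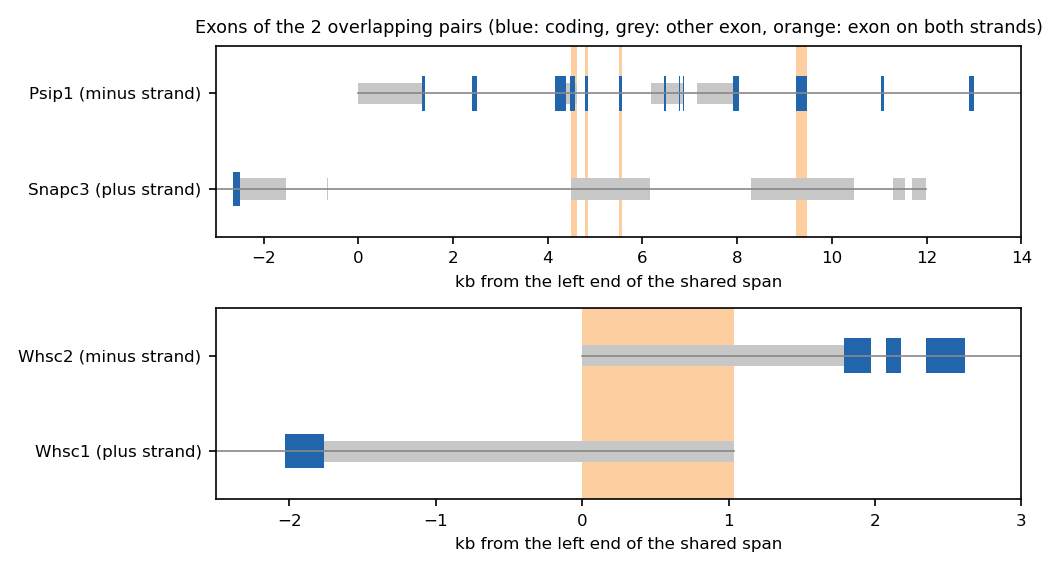
Annotated exons of Psip1 and Snapc3 (upper panel) and of Whsc1 and Whsc2 (lower panel) around the shared stretch, against distance in kb from the left end of the shared span; blue is coding exon, grey is other exon, and the orange bands mark bases that are exon on both strands. The 483 shared exon bases of Psip1 and Snapc3 fall in several short bands, and the 1040 shared bases of Whsc1 and Whsc2 form 1 block at the ends of both genes.

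The 6 tables held 1150089 to 1285487 counts each, of which 32.3 to 37.2% were at the ribosomal RNA locus AY036118, so the median tested gene had only 23 to 27 counts in a library. Of the counts outside AY036118, 85.7 to 87.8% were at genes with an exon opposite. The share at genes with none was 14.3 and 14.2% in KO1 and 12.3 and 12.2% in KO2, against 12.5 and 12.8% in wild type, so genes without an opposite gene were shifted as a class. Their median log2 fold change was 0.10 in KO1 and -0.06 in KO2, each against wild type, and 0.16 in KO1 against KO2. The ES cell markers, 6 of 8 tested in edgeR, gave 0 calls in any comparison, with at most 2 at an unadjusted p under 0.05, and 0 calls among the 2 to 4 that DESeq2 gave an adjusted p. Those at an unadjusted p under 0.05 were Zfp42, lower in KO1 than in wild type (log2 fold change -0.70) and in KO2 (-0.67), and Sox2, higher in KO1 than in KO2 (0.44). The summed counts of the markers were 328 and 335 in KO1 and 333 and 332 in KO2, against 336 and 309 in wild type. Most were at Klf4 (133 to 174) and Sox2 (66 to 100), so the sum says little of the other markers. The markers too are counted on the strand that does not measure abundant genes. By their own symbols, fibroblast markers summed to 2 to 14 counts a library with 3 of 6 at 0 (Col1a2, Postn and Thy1), and endoderm markers summed to at most 1 with 4 of 5 at 0. The neuroectoderm markers present summed to 160 to 218, nearly all at Pax6. Pax6 shares 5542 exon bases with Elp4, so on the strand reading its counts are fragments of the Elp4 strand. The counts at Elp4, which would be of the Pax6 strand, were 0 to 1 a library. Gm17329, which lies opposite the collagen gene Col1a1, had 4 and 3 counts in KO1 and 4 and 1 in KO2, against 78 and 94 in wild type. Its log2 fold change in the lines together was -4.84 ± 0.30 (edgeR, adjusted p = 1.84e-12), so counts opposite a fibroblast marker differed with genotype, and their part in the results below was not tested. In bulk RNA, fewer cells of a type and less RNA per cell cannot be told apart.

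Of the 9 genes, 7 had enough counts to be tested among the 5034 genes in the fit, and Setd2 and Ash1l did not. With the KO1 and KO2 lines together against wild type, 0 of the 7 passed an adjusted p of 0.05 in edgeR's quasi-likelihood test, where 6.62% of all tested genes did (2.72% higher and 3.89% lower). At an unadjusted p under 0.05 the count was also 0, and DESeq2 called 0 of the 6 it gave an adjusted p. The median log2 fold change was 0.00 (7 genes), against -0.01 over all tested genes. In KO1 against wild type 1 of 7 passed, Nsd1, where 9.79% of all tested genes did (3.46% higher and 6.34% lower). In KO2 against wild type 0 of 7 passed, where 8.98% did (5.01% higher and 3.97% lower), with Hdgf and Whsc1l1 at an unadjusted p under 0.05. DESeq2 called 0 of the 4 genes it gave an adjusted p there, and Whsc1l1 was not among them. In KO1 against KO2 1 of 7 passed, again Nsd1, where 19.3% of all tested genes did (7.93% higher and 11.4% lower). A count of 0 or 1 in 7 is near these background shares and sets the genes apart as a group in no comparison. The comparisons with wild type share the 2 wild type libraries.

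**Figure D2:**
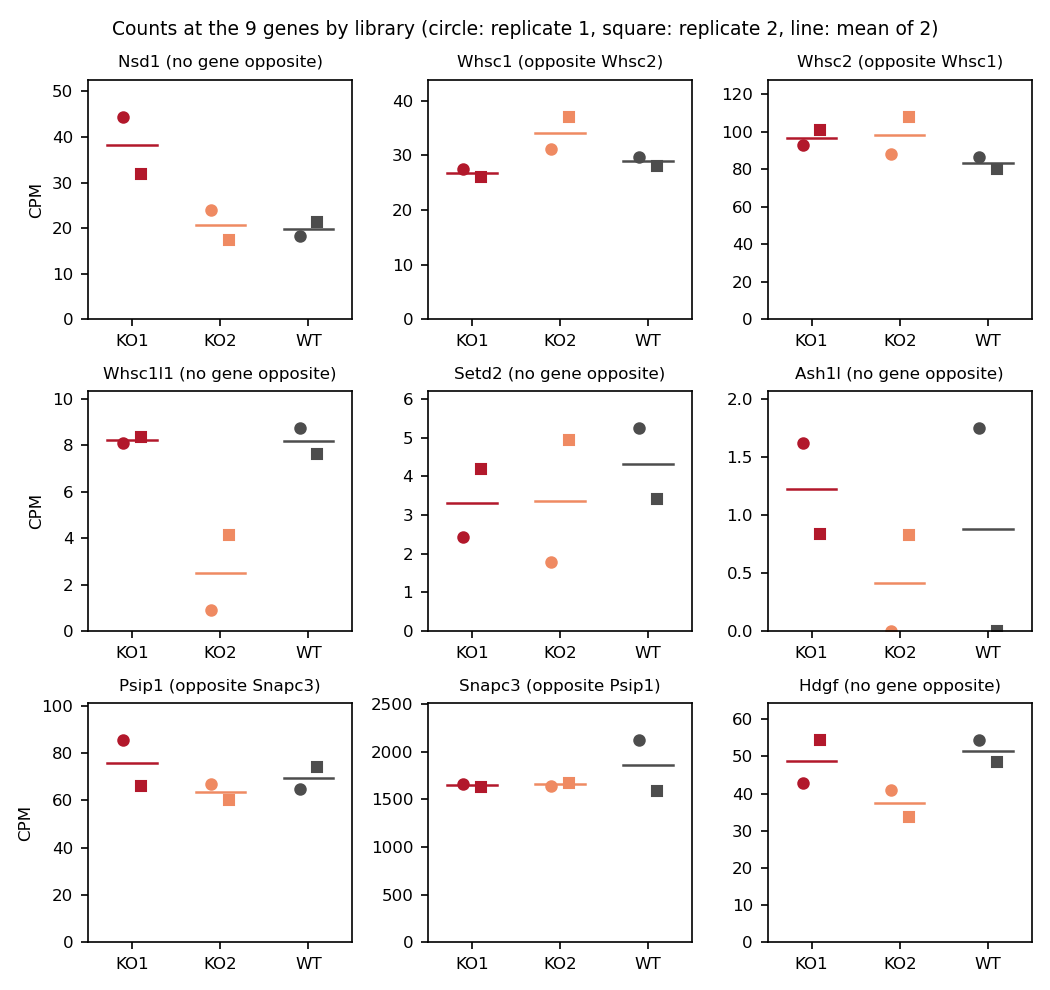
Scaled counts (CPM, by effective library size) at each of the 9 genes, by group, in the 6 libraries (circle, replicate 1; square, replicate 2; line, mean of 2), with each panel's axis starting at 0. Nsd1 stands at 44.5 and 31.9 CPM in KO1, above the other 4 libraries, and Snapc3 stands at 2127 CPM in wild type replicate 1, above the other 5.

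Levels, as counts per kb of annotated exon, spanned a wide range. For the overlapping pairs the length is that of the counted gene, not of the opposite exons the fragments would come from. Snapc3 had 273 to 360 per kb over the 6 libraries. Whsc2 (19.1 to 26.6), Hdgf (14.3 to 22.6) and Psip1 (14.4 to 20.9) followed with ranges that overlapped. Nsd1 (1.60 to 4.19) and Whsc1 (1.95 to 2.83) came next and also overlapped. Whsc1l1 (0.0606 to 0.606), Setd2 (0.190 to 0.569) and Ash1l (0 to 0.178) were lowest. Levels of genes with and without a gene opposite do not measure the same thing, so ranks are given within each kind. By mean CPM, Snapc3 was above 98% of the 2474 tested genes with a gene opposite, Whsc2 above 62.6%, Psip1 above 57.2% and Whsc1 above 38.4%. Hdgf was above 89.4% of the 2560 tested genes without a gene opposite, Nsd1 above 77.9% and Whsc1l1 above 2.5%.

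Nsd1, the methyltransferase whose loss the lines are labelled with (ENSMUSG00000021488.6, chromosome 13, 55311143 to 55419686, plus strand), had 55 and 38 counts in KO1 and 27 and 21 in KO2, against 21 and 25 in wild type. Both KO1 libraries were above the 4 others, and the KO2 and wild type libraries overlapped. Scaled, these were 38.2 ± 8.92 CPM in KO1 and 20.7 ± 4.77 in KO2, against 19.8 ± 2.04 in wild type (SD, n = 2 each). Counts at Nsd1 thus rose in KO1 against wild type, with a log2 fold change of 0.94 ± 0.27 (SE; 95% interval 0.39 to 1.5; edgeR quasi-likelihood, Benjamini-Hochberg adjusted p = 0.023). Against KO2, KO1 was also higher, by 0.89 ± 0.27 (0.34 to 1.44; adjusted p = 0.0187). KO2 and wild type differed by 0.05 ± 0.31 (-0.59 to 0.69; adjusted p = 0.945), an interval that does not hold the size seen in KO1. The lines together gave 0.50 ± 0.26 (adjusted p = 0.301).

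The Nsd1 calls rest on few counts and on single libraries. Against wild type the call was lost without KO1 replicate 1 (0.69, adjusted p = 0.289), without wild type replicate 1 (0.84, 0.147), without wild type replicate 2 (1.05, 0.0509) and in DESeq2 (0.94, adjusted p = 0.348). Against KO2 it was lost without KO1 replicate 1 (0.64, 0.238), without KO2 replicate 2 (0.65, 0.19) and in DESeq2 (0.86, adjusted p = 0.235). When only genes without an opposite gene were fitted and set the scaling, an alternative chosen after seeing the data, KO1 stood 0.85 ± 0.28 above wild type and 0.73 ± 0.28 above KO2, with an edgeR adjusted p of 0.113 in each case. Direction was the same in all of these. The nearest gene on the other strand, Rab24, lies 897 bases from Nsd1.

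**Figure D3:**
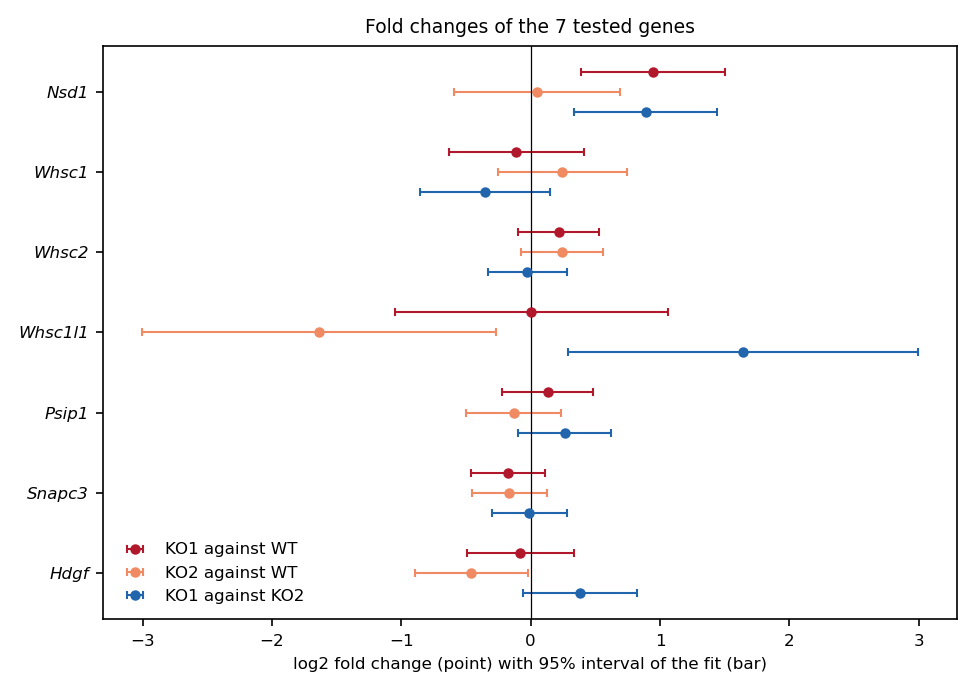
Log2 fold changes of the 7 tested genes (points) with the 95% intervals of the edgeR fit (bars), for KO1 against wild type (red), KO2 against wild type (orange) and KO1 against KO2 (blue). The Nsd1 intervals for KO1 lie wholly above 0, from 0.39 to 1.5 against wild type, and of the other genes only Whsc1l1 (KO2 against wild type, KO1 against KO2) and Hdgf (KO2 against wild type) have an interval without 0.

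Genes around Nsd1 were looked at after its values were seen. Within 500 kb on each side the tables hold 41 genes, of which 7 were tested. In KO1 against KO2 4 of these passed in edgeR, where 19.3% of all tested genes did, 11.3% of those without a gene opposite and 27.5% of those with one. In KO1 against wild type 1 did (4930451E10Rik), where these shares were 9.79%, 4.26% and 15.5%. Gm17617 and Lman2 were also at an unadjusted p under 0.05 there. The tested genes here are of both kinds. In the lines together 0 passed, with 0 at an unadjusted p under 0.05, and in KO2 against wild type 0 passed, with Gm15911 and Rab24 at an unadjusted p under 0.05. DESeq2 called 0 in each of the 4 comparisons, of the 5 or 6 genes it gave an adjusted p. Rab24, a small GTPase gene, had 127 and 124 counts in KO1 and 64 and 103 in KO2, with 99 and 131 in wild type. Its log2 fold change was 0.53 ± 0.17 in KO1 against KO2 (adjusted p = 0.0275), and against wild type it was 0.06 in KO1 and -0.47 in KO2, of which neither passed. Lman2, which encodes a lectin of the secretory pathway, had 27 and 20 counts in KO1 and 11 and 2 in KO2, with 5 and 16 in wild type (KO1 against KO2 1.77 ± 0.50, adjusted p = 0.0119). The uncharacterised 4930451E10Rik had 110 and 111 counts in KO1 and 62 and 71 in KO2, with 75 and 64 in wild type (KO1 against KO2 0.67 ± 0.17, adjusted p = 0.00403). These 3 have no gene opposite, and in each both KO1 libraries were above both KO2 libraries. At Lman2 and 4930451E10Rik both KO1 libraries were also above wild type, as at Nsd1, while at Rab24 KO1 overlapped wild type. Gm15911, opposite the galactosyltransferase gene B4galt7, went the other way, with 46 and 45 counts in KO1 and 62 and 74 in KO2, and 50 and 50 in wild type (KO1 against KO2 -0.63 ± 0.20, adjusted p = 0.0223). So did Gm17617, which has no gene opposite, with 126 and 137 counts in KO1, 145 and 177 in KO2 and 159 and 161 in wild type. At Gm17617 KO1 against KO2 was -0.35 ± 0.13 (-0.62 to -0.08) and did not pass in edgeR (adjusted p = 0.0624). The Rab24 call was lost without KO1 replicate 2 or KO2 replicate 1 (0.26, adjusted p = 0.41), that of Lman2 without KO1 replicate 1 or KO2 replicate 2 (0.96, adjusted p = 0.201), and that of Gm15911 without either KO1 library or KO2 replicate 2. When genes without an opposite gene set the scaling, Rab24 (adjusted p = 0.239) and 4930451E10Rik (adjusted p = 0.0807) no longer passed and Lman2 did (adjusted p = 0.0446). Over the 163 tested genes of chromosome 13 the median log2 fold change was 0.01 in KO1 against wild type and 0.00 in KO1 against KO2.

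**Figure D4:**
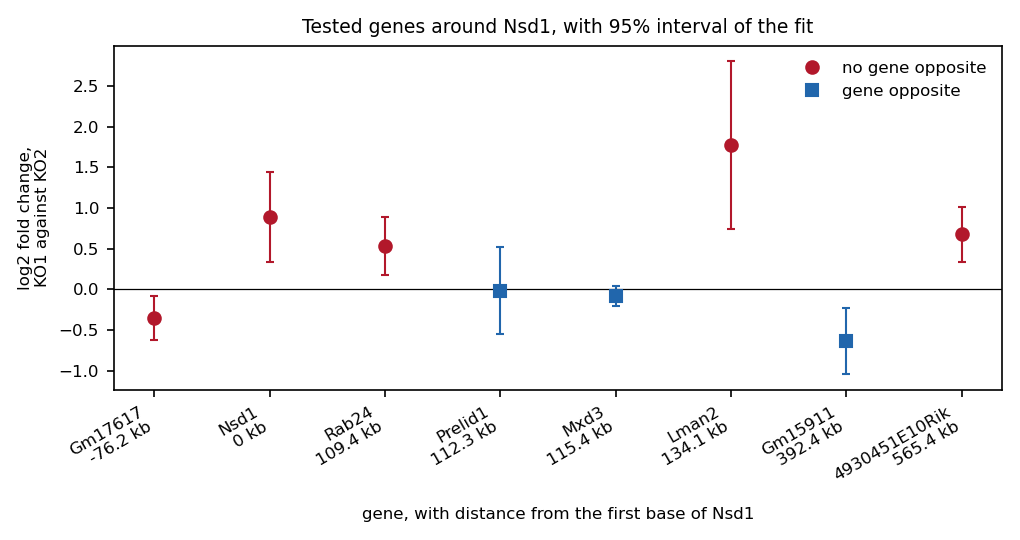
Log2 fold change in KO1 against KO2 (points) with the 95% interval of the edgeR fit (bars) for Nsd1 and the 7 tested genes within 500 kb of it, in order of distance from the first base of Nsd1; red circles have no gene opposite and blue squares have one. Rab24, Lman2 and 4930451E10Rik lie above 0 with Nsd1. Gm15911, which has a gene opposite, and Gm17617, which has none and did not pass, lie below 0.

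Over the 6 libraries, the log2 CPM of Nsd1 was most like that of Gng3 (Pearson r = 0.994), Sycp1 (0.981), 1110028C15Rik (0.977), Gm6616 (0.972) and Fam73a (0.967), among all tested genes. These are descriptions over 6 libraries of shared depth and 3 groups. Sycp1, a gene of the meiotic synaptonemal complex, had 91 and 74 counts in KO1 and 54 and 53 in KO2, against 52 and 54 in wild type, the same split of the libraries as at Nsd1. Gng3 lies opposite Bscl2 and 1110028C15Rik lies opposite Rpe, and the other 3 have no gene opposite.

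Whsc1, the NSD family member known as NSD2, had 34 and 31 counts in KO1 and 35 and 45 in KO2, against 34 and 33 in wild type. Both KO2 libraries were above the 4 others, and KO1 and wild type overlapped. In CPM these were 26.7 ± 1.06 in KO1 and 34.2 ± 4.18 in KO2, against 28.9 ± 1.2 in wild type (SD, n = 2 each). The log2 fold change of the lines together was 0.07 ± 0.22 (-0.38 to 0.51; adjusted p = 0.913). The largest of the 4 differences was KO1 against KO2, -0.35 ± 0.25, with an adjusted p of 0.337.

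Whsc1l1, the NSD family member known as NSD3 (ENSMUSG00000054823.8, chromosome 8, 26712073 to 26830139, plus strand), had 10 and 10 counts in KO1 and 1 and 5 in KO2, against 10 and 9 in wild type. Both KO2 libraries were below the 4 others. Summed, KO2 had 6 counts and wild type 19, a depth-scaled ratio of 0.314 with an exact 95% interval of 0.103 to 0.817 that covers counting error only. The fitted log2 change in KO2 was -1.64 ± 0.67 (-3.0 to -0.27), and its adjusted p over all genes was 0.137 in edgeR. KO1 against wild type gave 0.01 ± 0.52, and KO1 against KO2 gave 1.64 ± 0.66 (0.29 to 3.0; adjusted p = 0.0826). Both KO2 values rest on which KO2 library is kept. Without KO2 replicate 2, which leaves a KO2 group of 1 library with 1 count, KO1 against KO2 was 3.05 (adjusted p = 0.0499) and KO2 against wild type was -3.05; without KO2 replicate 1 they were 0.96 (adjusted p = 0.456) and -0.95. On chromosome 8 the median of 324 tested genes was -0.08 in KO2 against wild type.

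Setd2, the enzyme that trimethylates H3K36 (ENSMUSG00000044791.9, chromosome 9, 110435101 to 110521137, plus strand), had 3 and 5 counts in KO1 and 2 and 6 in KO2, against 6 and 4 in wild type. The groups overlapped. The depth-scaled ratio of the summed counts, 16 in the lines together and 10 in wild type, was 0.779 with an exact 95% interval of 0.332 to 1.92. This interval covers counting error only and is not a limit of detection, and Setd2 was below the count filter of the fit. Ash1l, the trithorax-group dimethyltransferase (ENSMUSG00000028053.7, chromosome 3, 88769734 to 88883295, plus strand), had 2 and 1 counts in KO1 and 0 and 1 in KO2, against 2 and 0 in wild type. At 3 counts or fewer in each group no fold change is given.

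The counts at Snapc3, read as fragments of the Psip1 strand, were 2055 and 1946 in KO1 and 1844 and 2030 in KO2, against 2431 and 1873 in wild type. Wild type replicate 1 stood above the 5 others in counts and in CPM. Wild type replicate 2 lay among the knockout libraries in raw counts, and at 1592 CPM it lay below all 4 of them (1632 to 1674 CPM), so the wild type libraries stood on either side of the knockouts. In CPM the group means were 1647 ± 21.2 in KO1 and 1659 ± 21.4 in KO2, against 1860 ± 378 in wild type (SD, n = 2 each). The log2 fold change of the lines together was -0.17 ± 0.10 (-0.42 to 0.08; adjusted p = 0.474), and KO1 and KO2 differed by -0.01 ± 0.12 (-0.30 to 0.28; adjusted p = 0.965). The first value depended on which wild type library was kept: without wild type replicate 2 it was -0.36 and without wild type replicate 1 it was 0.06. With 1 wild type library left, the edgeR adjusted p (1.99e-07 and 0.768) takes the spread from the knockout libraries alone, which lie close together, and does not measure the spread within wild type.

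The counts at Psip1, read as fragments of the Snapc3 strand, were 106 and 79 in KO1 and 75 and 73 in KO2, against 74 and 87 in wild type. KO1 replicate 1 was the highest, and otherwise the groups overlapped. The log2 fold change of the lines together was 0.00 ± 0.15 (-0.31 to 0.32; adjusted p = 0.999), and that of KO1 against KO2 was 0.26 ± 0.18 (adjusted p = 0.32). Of the counts at the pair, Snapc3 took 95.1 and 96.1% in KO1 and 96.1 and 96.5% in KO2, against 97 and 95.6% in wild type. The exact binomial 95% intervals of KO1 replicate 1 (94.1 to 96%) and wild type replicate 1 (96.3 to 97.7%) did not overlap, while that of wild type replicate 2 (94.6 to 96.4%) overlapped both. Counts at Snapc3 were 19.4 to 32.9 times those at Psip1. Per kb of the counted gene's own exons they were 14.6 to 24.7 times as high, but the exon bases the genes share are the same for both. The bases that are exon on both strands are 7.14% of the Snapc3 exon bases, and where within Snapc3 the fragments fell is not given by a count per gene.

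Hdgf, the PWWP-domain growth factor (ENSMUSG00000004897.10, chromosome 3, 87710243 to 87720054, plus strand), had 53 and 65 counts in KO1 and 46 and 41 in KO2, against 62 and 57 in wild type. Both KO2 libraries were below the 4 others, and KO1 overlapped wild type. In CPM these were 48.7 ± 8.23 in KO1 and 37.4 ± 5.09 in KO2, against 51.4 ± 4.09 in wild type (SD, n = 2 each). The log2 fold change in KO2 was -0.46 ± 0.21 (-0.90 to -0.02) and did not pass (adjusted p = 0.203); in KO1 it was -0.08 ± 0.20 (adjusted p = 0.87). KO1 and KO2 differed by 0.38 ± 0.21 (-0.06 to 0.82; adjusted p = 0.225).

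The counts at Whsc2, read as fragments of the Whsc1 strand, were 115 and 120 in KO1 and 99 and 131 in KO2, against 99 and 94 in wild type. Both KO1 libraries were above wild type, and KO2 replicate 1 equalled wild type replicate 1 in raw counts. In CPM these were 96.8 ± 5.40 in KO1 and 98.1 ± 13.98 in KO2, against 83.3 ± 4.74 in wild type (SD, n = 2 each), and all 4 knockout libraries were above both wild type libraries on this scale. The log2 fold change of the lines together was 0.23 ± 0.13 (-0.05 to 0.50) with an adjusted p of 0.383, and the values of the single lines were 0.22 ± 0.15 in KO1 and 0.24 ± 0.15 in KO2. Of the counts at the pair, Whsc2 took 77.2 and 79.5% in KO1 and 73.9 and 74.4% in KO2, against 74.4 and 74% in wild type, and the exact binomial 95% intervals of all 6 libraries overlapped. Counts at Whsc2 were 2.83 to 3.87 times those at Whsc1. Per kb of the counted gene's own exons they were 9.13 to 12.5 times as high, but the exon bases the genes share are the same for both.

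The wider machinery was read from 6 lists: other H3K36 methyltransferases, H3K36 demethylases, other readers, elongation factors that work with SETD2, and the other subunits of NELF and of SNAPc. By their own symbol, the tables hold 41 of these genes and 15 were tested. In the lines together, in KO1 and in KO2, each against wild type, 0 of 15 passed in edgeR, with 0, 0 and 1 at an unadjusted p under 0.05. DESeq2 gave an adjusted p for 9, 5 and 1 of the 15 in these comparisons and called 0. In KO1 against KO2 1 of 15 passed, Phf1, where 19.3% of all tested genes did (7.93% higher and 11.4% lower). The share was 11.3% of tested genes without a gene opposite, as Phf1 is, and 27.5% of those with one. DESeq2 gave an adjusted p for 1 of the 15 in KO1 against KO2, which was not Phf1, and called 0. The median log2 fold change of the 15 was 0.33 there, against 0.02 over all tested genes and 0.16 over tested genes without a gene opposite. Phf1, a Tudor-domain partner of Polycomb that binds trimethylated H3K36, had 22 and 20 counts in KO1 and 9 and 6 in KO2, with 12 and 17 in wild type. Its log2 fold change in KO1 against KO2 was 1.41 ± 0.41 (adjusted p = 0.0147), and the call was lost without KO1 replicate 1, KO1 replicate 2 or KO2 replicate 2, where the adjusted p was 0.0822, 0.0561 and 0.169.

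The methyltransferases Smyd2 (1 to 5 counts), Setmar (0 to 3) and Prdm9, which had 0 counts in every library, were below the filter. Of 7 demethylases Kdm2b, which removes H3K36 dimethylation, was the only one tested. It had 42 and 39 counts in KO1 and 35 and 43 in KO2, against 47 and 50 in wild type, and its log2 fold change in the lines together was -0.33 ± 0.19 (adjusted p = 0.382). Kdm2b shares 199 exon bases with A930024E05Rik, so on the strand reading its counts are fragments of the A930024E05Rik strand. Kdm4a had 5 to 11 counts and Kdm2a 4 to 8. Among readers, Brpf1 (18 to 42 counts), the mismatch repair gene Msh6 (18 to 31) and Brd1 (15 to 36) had the highest means. Their groups overlapped, except that both KO1 libraries were above the 4 others at Brd1 (36 and 26 counts in KO1 and 24 and 19 in KO2, against 24 and 15 in wild type), which did not pass.

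All 5 elongation factors were tested in edgeR, and 0 passed in any comparison, with 0 at an unadjusted p under 0.05. DESeq2 gave an adjusted p for 3 of the 5 in the lines together and 1 in KO1 against wild type, with 0 called, and for 0 in the other comparisons. Iws1, which couples SETD2 to the polymerase, had 16 and 23 counts in KO1 and 18 and 18 in KO2, against 24 and 28 in wild type. All 4 knockout libraries were below both wild type libraries, and the log2 fold change was -0.51 ± 0.27. Supt6h, its histone chaperone partner, had 15 to 34 counts and Polr2a, the largest polymerase II subunit, 15 to 24. Supt6h shares 242 exon bases with Sdf2, so on the strand reading its counts are fragments of the Sdf2 strand. Of the NELF genes Th1l had 11 to 34 counts, Rdbp 0 to 6 and Cobra1 0 to 3, and of the SNAPc genes Snapc2 had 8 to 11, Snapc4 1 to 4 and Snapc5 0 to 2.

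On the strand reading, the transcripts of listed genes would show at the counted genes opposite them. The tables hold 13 such genes, of which 10 were tested. In the lines together 0 of 10 passed in edgeR, with Rpgrip1 at an unadjusted p under 0.05, and DESeq2 called 0 of the 9 it gave an adjusted p. In KO1 against wild type 2 were higher and 1 lower, where 9.79% of all tested genes and 15.5% of those with a gene opposite passed. In KO2 against wild type 1 was lower, where these shares were 8.98% and 13.9%. In KO1 against KO2 2 were higher and 2 lower, where 7.93% and 11.4% of all tested genes were higher and lower, and 27.5% of those with a gene opposite passed in either direction. The 2 higher genes are, in each of these comparisons, the overlapping entries of 1 locus, BC065397.

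Gm17659, a lincRNA whose 262 shared bases all lie in the coding sequence of Morf4l1 (MRG15, a chromodomain reader of H3K36 methylation), had 3919 and 3855 counts in KO1 and 3927 and 4421 in KO2, with 3995 and 3981 in wild type. Scaled to depth, both KO1 libraries were below both KO2 libraries, by a log2 difference of -0.16 ± 0.05 (edgeR adjusted p = 0.0144), a call that was lost without KO1 replicate 1 (adjusted p = 0.187), KO1 replicate 2 (0.0518) or KO2 replicate 2 (0.12). Gm15492, which shares 255 of its 606 exon bases with Brpf1, a scaffold of histone acetyltransferase complexes, had 201 and 151 counts in KO1 and 197 and 253 in KO2, against 229 and 213 in wild type. It fell in KO1 against wild type by 0.40 on the log2 scale (SE 0.13, adjusted p = 0.0419) and was lower in KO1 than in KO2 (-0.41 ± 0.13, adjusted p = 0.0204). The first of these calls was lost with a minimum count of 20 and with the replicate block, and both were lost in DESeq2 and without KO1 replicate 2. The first was also lost without wild type replicate 1 and the second without KO2 replicate 2.

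BC065397 lies opposite Morf4l2, the X-linked relative of Morf4l1. Its non-coding entry (chromosome X, 133276363 to 133337903) had 196 and 191 counts in KO1 and 58 and 37 in KO2, against 79 and 85 in wild type, with no overlap among the 3 groups. It rose in KO1 (1.17 ± 0.15, adjusted p = 2.86e-06), fell in KO2 (-0.79 ± 0.20, adjusted p = 0.0103; lost without KO2 replicate 2 and in DESeq2) and differed between KO1 and KO2 by 1.96 ± 0.17 (adjusted p = 4.85e-10). The coding entry of BC065397 (133276397 to 133277682), which overlaps the non-coding one so that their fragments cannot be fully told apart, had 35 and 27 counts in KO1 and 9 and 12 in KO2, against 15 and 15 in wild type (KO1 against KO2 1.49 ± 0.34, edgeR adjusted p = 0.00168). DESeq2 called only 1 BC065397 entry in KO1 against wild type and only 1 in KO1 against KO2. Only 98 of the 3515 exon bases of the non-coding entry and 95 of the 1286 of the coding entry lie opposite Morf4l2. Morf4l2 itself had 27 and 18 counts in KO1 and 14 and 15 in KO2, against 27 and 19 in wild type, and did not pass.

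**Figure D5:**
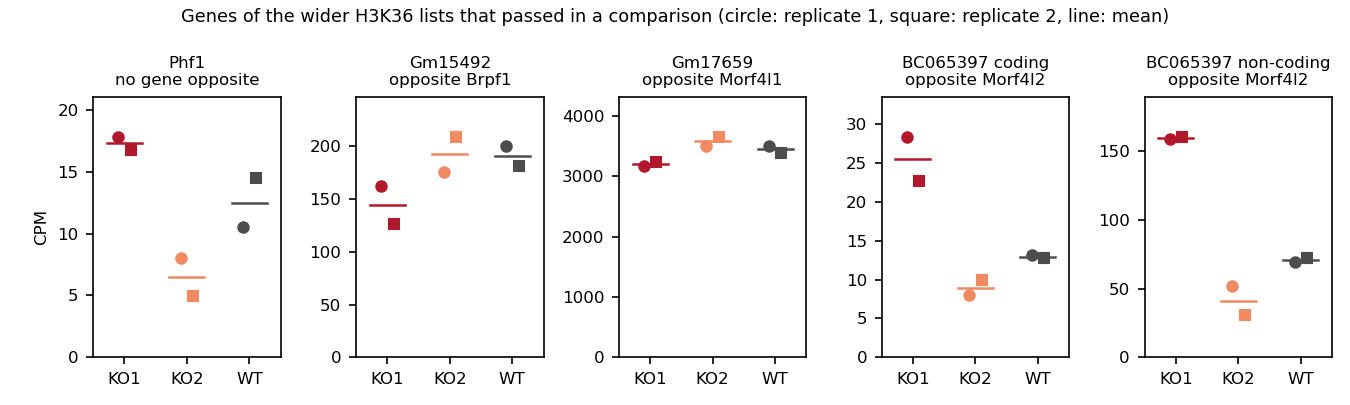
CPM in the 6 libraries (circle, replicate 1; square, replicate 2; line, mean of 2) at the 5 genes of the wider lists, or opposite them, that passed in a comparison, with each axis starting at 0. The non-coding entry of BC065397 separates the 3 groups, with KO1 highest and KO2 lowest, and the KO1 and KO2 libraries do not overlap at any of the 5.

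The remaining counted genes with the highest levels did not pass. Rpgrip1, which shares 889 exon bases with the histone chaperone gene Supt16h, had 3693 and 3586 counts in KO1 and 3419 and 3666 in KO2, against 3920 and 3704 in wild type. All 4 knockout libraries were below both wild type libraries in CPM, with a log2 fold change of -0.13 ± 0.04 in the lines together (adjusted p = 0.0694). Tmed5, which shares 395 exon bases with the Polycomb partner Mtf2, had 1551 to 1807 counts and a log2 fold change of -0.07 ± 0.05 in the lines together (adjusted p = 0.489).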

How the data were processed

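The deposited values are raw counts of fragments per gene, 1 table a library, made by the authors with featureCounts 2.0.1 in paired mode and at strand setting 1 on GENCODE mouse version 1 (mm9), per the file headers. The submitters' processing notes also name bedtools 2.92.2, GATK 4.1.4.0, Bowtie2, STAR 2.5.4b and Trim Galore 0.6.4, without saying which made these tables. No source used here tells whether the library kit keeps strand. Spans and strands of all 37310 genes equalled the annotation, so coordinates are mm9, 1-based. The other 44 samples of the series were not analysed here.

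Counts of the 6 RNA libraries were fitted together with edgeR 4.0.16 in R 4.3.3: filterByExpr with a minimum count of 10, TMM scaling, a mean per group and a robust quasi-likelihood test. This left 5034 genes, 3 residual degrees of freedom and a common coefficient of variation of 4.46%. A gene was called at a Benjamini-Hochberg adjusted p under 0.05 over all tested genes. CPM are counts scaled to the effective library size. Errors of log2 values are SEs of the fit, and intervals on shares (Clopper-Pearson) and on ratios of summed counts cover counting error only. A gene was taken as opposite at 50 or more shared exon bases. The alternatives were other scalings and filters, DESeq2 1.42.0, a replicate block, a fit without AY036118 and each library left out. With a library left out, the lone library of its group is assumed to vary like those of the other groups. DESeq2 gives low-count genes no adjusted p, and these are not counted as tested by it. The steps were also run on simulated counts, with the same change planted in both lines and a common spread for all genes. That run does not cover differences between the lines or a spread that varies by gene, and its result is not reported here. The named genes are the 9 genes, genes opposite them, and from each wider list, or opposite it, those called and up to 3 of the highest mean CPM. The genes around Nsd1, Gm17329 and the genes under other observations were named after their values were seen. The genes and lists were chosen with earlier results of these data known.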

Additional observations from a re-analysis of the deposited data

Results flagged for a closer look

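In 10 results the KO1 and KO2 lines differed from each other by a direct test in the fit of all 6 libraries. The log2 fold change in KO1 against KO2 was 0.89 at Nsd1, 1.41 at Phf1 and 1.49 at the coding and 1.96 at the non-coding entry of BC065397, all higher in KO1. It was -0.41 at Gm15492 and -0.16 at Gm17659, both lower in KO1. Near Nsd1 it was 0.53 at Rab24, 1.77 at Lman2 and 0.67 at 4930451E10Rik, and -0.63 at Gm15911. Since 19.3% of all tested genes passed in this comparison, differences between the lines were common in these tables, and no explanation of them was tested. Groups of 2 libraries were too small for a search for outlying samples.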

How the results depend on the processing

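Of 708 fold changes recomputed under an alternative, 629 kept their direction and their side of the threshold, 49 lost the threshold, 4 gained it and 26 changed sign; the cause was not tested. The number of genes called in the lines together was 213 to 362 with each library left out in turn, 91 in DESeq2, and 6 with the 4 knockout libraries as 1 group, where the difference between lines counts as spread. It was 280 to 591 with a library left out and 182 in DESeq2 in KO1 against wild type, 328 to 435 and 137 in KO2 against wild type, and 561 to 1065 and 370 in KO1 against KO2. With a library left out, the gene called among the 9 was not always Nsd1. Without wild type replicate 2, which leaves 1 wild type library, it was Snapc3 in KO1 against wild type (log2 fold change -0.37). The same held for Snapc3 in KO2 against wild type (-0.34) and in the lines together (-0.36). Without KO2 replicate 2 it was Whsc1l1 in KO1 against KO2 (3.05). DESeq2 called 0 of the 6 genes it gave an adjusted p in KO1 against wild type, and 0 of 6 in KO1 against KO2. With each library left out, the log2 fold change crossed 0 at Nsd1 in KO2 (-0.17 to 0.29), Whsc1l1 in KO1 (-0.086 to 0.10), Hdgf in KO1 (-0.27 to 0.10) and Psip1 in KO1 (-0.0554 to 0.29) and in the lines together (-0.0928 to 0.11). So it did at Snapc3 in the lines together (-0.36 to 0.0565), KO1 (-0.37 to 0.0447) and KO2 (-0.34 to 0.0684), at Whsc2 in KO1 against KO2 (-0.18 to 0.12), and at Gm15492 in KO2 (-0.11 to 0.15). In the lines together it also did at Phf1 (-0.45 to 0.0161), Gm17659 (-0.0419 to 0.0017) and the non-coding BC065397 (-0.0089 to 0.36). A minimum count of 20 turned Whsc2 to 0.0103 and Snapc3 to 0.0242 in KO1 against KO2, and no filter turned Whsc1l1 to -0.0149 in KO1 and Psip1 to -0.0034 in the lines together. With the replicate number as a block, 321 genes were called in the lines together, 482 in KO1 and 416 in KO2 against wild type, and 935 in KO1 against KO2, with 0, 1, 0 and 1 of the 9 genes; Psip1 in the lines together turned to -0.0008. Libraries with the same number share only that number: their deviations correlated at -0.0356 (KO1 and KO2), 0.0109 (KO1 and wild type) and -0.00685 (KO2 and wild type). Setd2 and Ash1l could be fitted only without a filter. The median tested gene had 23 to 27 counts a library, and Whsc1l1, Setd2 and Ash1l had at most 10, so small changes there were not detectable at this depth.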

Other observations

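Some genes of the wider lists reached an unadjusted p under 0.05 in edgeR's test without passing over all tested genes, and are named here after their values were seen. In KO1 against KO2 these were Brpf3, a scaffold of an acetyltransferase complex, with 22 and 14 counts in KO1 and 8 and 10 in KO2; Hdgfrp3, a PWWP-domain relative of Hdgf, with 25 and 21 in KO1 and 8 and 17 in KO2; and the NELF subunit gene Th1l, with 26 and 34 in KO1 and 11 and 20 in KO2. In each the KO1 libraries were above the KO2 libraries, and in all 3 the adjusted p missed the threshold. Hdgfrp3 shares 1220 exon bases with Tm6sf1, so on the strand reading its counts are fragments of the Tm6sf1 strand. The de novo DNA methyltransferase genes Dnmt3a and Dnmt3b, whose PWWP domains read H3K36 methylation, were below the filter and were not tested. Dnmt3a had 9 and 13 counts in KO1 and 5 and 10 in KO2, against 1 and 5 in wild type. Dnmt3a shares 133 exon bases with Gm10485, so on the strand reading its counts are fragments of the Gm10485 strand. Dnmt3b had 7 and 10 in KO1 and 5 and 6 in KO2, against 2 and 3 in wild type. They too were named after their values were seen, and readers below the filter went both ways. In mean CPM, Hdgfrp2 stood at 5.89 in the lines together and 6.45 in wild type, and Glyr1 at 3.98 and 4.73. Morf4l1 stood at 5.47 in the lines together and 5.18 in wild type.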
